A study of Mus musculus with 12 samples.

Results

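The Schlafen genes Slfn1, Slfn2, Slfn3, Slfn4, Slfn5, Slfn8 and Slfn9 were described in mouse spleen, 7 genes of the 19938 measured. Members were chosen by name: every probe set annotated to one of these symbols was taken, and each gene had 1 probe set of its own, with 0 probe sets annotated to more than 1 relative. The series holds 12 Affymetrix arrays of C57BL/6 spleens in 3 labelled groups of 4 biological replicates. The first group is labelled Toll-like receptor (TLR)-deficient and septic, with titles that name Trif and myd, taken here as the TLR adaptors Trif and MyD88. The second is labelled wildtype and septic, and the third wildtype and untreated, with a time point of 0 h in the titles of 3 of its 4 arrays (in that of replicate 1 the letter O stands in place of the digit). Septic mice had colon ascendens stent peritonitis, in which a tube left in the colon wall lets gut bacteria leak into the abdomen. No group of untreated TLR-deficient mice was analysed. The labels used here do not give the alleles, the age or sex of the mice, or the time from operation to sampling. Values are log2 expression values, so a difference of 1 is a factor of 2.

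Schlafen proteins were named after the German word for sleeping, because forced expression of the founding member Slfn1 halted the growth of thymocytes. Mouse members are grouped by length into short proteins (Slfn1, Slfn2), intermediate ones (Slfn3, Slfn4) and long ones with a helicase-like region at the end (Slfn5, Slfn8, Slfn9). Many Schlafen genes are induced by type I interferon, which acts through transcription factors that bind a promoter motif, the interferon-stimulated response element (ISRE). In spleen these genes are known from T cells and from cells of the monocyte and macrophage lineage.

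The arrays did not group by label. For 5 of the 12 arrays, the most similar other array across genes carried the same label. The array labelled septic wildtype replicate 2 (title number M10) stood apart from all others: its log2 values had an SD of 1.52, against 2.11 to 2.24 on the other 11 arrays. Xist, the RNA of the inactive X chromosome, lay between 3.73 and 4.33 on title numbers M12 to M15 and between 8.94 and 10.94 on the other 8 arrays. In the titles M8 is septic TLR-deficient replicate 4, M12 is septic wildtype replicate 4 and M16 is untreated replicate 4. Below, values are given by label and then by runs of title numbers (M8 to M11; M12 to M15; M5 to M7 with M16). These runs cut across the labels and were proposed with values of these arrays known, so they are given as ranges with no test. Il6, a cytokine of acute inflammation chosen after its values were seen, lay between 6.34 and 9.22 on M5 to M7 with M16, highest on untreated replicate 4, and between 2.90 and 4.31 on the other 8 arrays, the septic wildtype ones included. Whether every array carries its right label was not tested, and each difference between labelled groups below holds for the labels as deposited. B cell, T cell and red pulp macrophage markers were present, with list means of 8.56 to 10.34, 7.14 to 8.60 and 8.27 to 9.99 over the arrays, and 5 measured hepatocyte markers averaged 4.03 to 5.62. Pancreatic acinar markers (4 of 6 measured) averaged 9.22 on septic wildtype replicate 4, 10.29 on untreated replicate 2 and 4.60 to 7.33 on the other arrays, and their part in the results was not tested.

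The promoters of the long members held a match to the ISRE. Those of the other members held another short motif, which was picked after they had been read. All 7 members were matched by symbol to RefSeq promoters of build GRCm38.p6, which hold 250 bases before and 50 bases after a start site. The ISRE was searched on both strands as GAAA, any 2 bases and GAAA again. It was found for Slfn5, Slfn8 and Slfn9, the 3 long ones among the 7 members, against 3.99% of the 27025 genes with a promoter in the table. The sequences below show the matches in capitals, with up to 50 bases on each side or, where the reference holds a start of the gene further upstream, 10 bases. Each is written 5′ to 3′ on the strand of its gene and ends before the start site.
Slfn8, chr11:83020811-83020908, minus strand: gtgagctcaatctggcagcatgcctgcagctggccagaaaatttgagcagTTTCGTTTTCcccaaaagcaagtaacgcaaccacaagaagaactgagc
Slfn9, chr11:82991831-82991925, minus strand: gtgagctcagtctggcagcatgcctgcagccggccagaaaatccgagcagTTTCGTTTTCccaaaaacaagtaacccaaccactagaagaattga
Slfn5, chr11:82951937-82951966, plus strand: ccttcaaagtGAAAAAGAAAaaaaaaaaag

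In Slfn8 and Slfn9 the match lay on the strand opposite to the gene and began 48 and 45 bases before the start site (for Slfn8 the nearer of its RefSeq starts), and in Slfn5 it lay on the strand of the gene and began 155 bases before it. The Slfn5 match runs on into a stretch of A, and whether base composition alone accounts for it was not tested. The Slfn8 and Slfn9 promoters were 79.8% identical over the 250 bases before the start, so their matches are not independent of each other. The next most alike pair of members, Slfn1 and Slfn9, were 49.1% identical. Apart from Slfn8 and Slfn9, whole promoters did not group by member length: Slfn5 was 46.0% and 42.1% identical to these, and the adjoining Slfn3 and Slfn4 were the least alike pair, at 39.1%. Probe sequences were not used here, so whether probes of one of these near copies also bind the other is unknown.

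The short and intermediate members shared another stretch of letters, ACTTCCTGG, close to the start site. It was present for Slfn1, Slfn2, Slfn3 and Slfn4, in each case on the strand of the gene, and for 0.999% of all genes in the table. This stretch was chosen after the promoters of the members had been read, so its count in them is a description. It holds the GGAA core of sites bound by Ets factors on the other strand, and it does not overlap an ISRE match.
Slfn1, chr11:83116696-83116804, plus strand: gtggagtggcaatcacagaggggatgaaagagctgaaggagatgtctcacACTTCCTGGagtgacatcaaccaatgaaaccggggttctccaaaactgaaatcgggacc
Slfn2, chr11:83065007-83065111, plus strand: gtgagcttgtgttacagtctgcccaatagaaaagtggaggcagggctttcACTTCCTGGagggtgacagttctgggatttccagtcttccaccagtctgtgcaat
Slfn3, chr11:83191238-83191329, plus strand: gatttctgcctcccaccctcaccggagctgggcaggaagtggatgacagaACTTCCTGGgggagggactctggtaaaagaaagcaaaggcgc
Slfn4, chr11:83175103-83175131, plus strand: ttccggttatACTTCCTGGagtgacgaaa

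The match began 74, 55, 42 and 73 bases before the start site in Slfn1, Slfn2, Slfn3 and Slfn4. The GAS element, another interferon-response motif, searched as TTCNNNGAA, which reads the same on both strands, was found in 0 of 7 members and 9.55% of all genes. These matches say only which letters the windows hold.

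Slfn1, the short founding member associated with thymocyte growth arrest, had log2 values of 9.04, 9.36, 8.16 and 7.77 on the arrays labelled septic TLR-deficient replicates 1 to 4. It had 8.11, 5.55, 7.88 and 9.77 on septic wildtype replicates 1 to 4, and 8.72, 10.14, 10.21 and 8.68 on untreated replicates 1 to 4. The labelled groups overlapped, and the spread was widest in the septic wildtype group, where replicate 2 was the lowest of all 12 arrays and replicate 4 the third highest. By title number the range was 5.55 to 8.11 on M8 to M11, 8.16 to 9.36 on M5 to M7 with M16, and 8.72 to 10.21 on M12 to M15.

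Slfn2, which keeps T cells and monocytes in a resting state, had values of 10.50, 10.37, 10.01 and 9.57 on septic TLR-deficient replicates 1 to 4. The septic wildtype arrays had 9.61, 8.21, 9.51 and 10.34, and the untreated arrays 9.99, 10.28, 10.14 and 10.41, in replicate order. Slfn2 had the narrowest spread of the family apart from 1 array: its range over 12 arrays was 2.29, and 0.99 without septic wildtype replicate 2. All values outside M8 to M11 lay between 9.99 and 10.50, and those within between 8.21 and 9.61.

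Slfn3, an intermediate member studied in regulatory T cells and gut epithelium, had 7.37, 7.82, 7.46 and 6.70 on septic TLR-deficient replicates 1 to 4. It had 6.45, 5.99, 6.16 and 7.46 on the septic wildtype arrays and 6.96, 7.53, 7.57 and 7.60 on the untreated arrays. On M8 to M11 it ranged from 5.99 to 6.70 and on the other arrays from 6.96 to 7.82. The range on M5 to M7 with M16 (7.37 to 7.82) overlapped that on M12 to M15 (6.96 to 7.57).

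Slfn4, which interferon induces in myeloid cells, varied most. Its values were 9.91, 9.25, 7.50 and 7.90 on septic TLR-deficient replicates 1 to 4, and 7.61, 6.41, 6.47 and 11.09 on septic wildtype replicates 1 to 4. The untreated arrays had 9.64, 10.61, 10.83 and 8.43. The array labelled septic wildtype replicate 4 was thus the highest of all 12, while replicates 2 and 3 of the same label were the lowest. Its SD over 12 arrays was 1.65, above that of 99.8% of genes, against a median SD of 0.39 over all genes. Without septic wildtype replicate 2 these were 1.54, 99.7% and 0.23.

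Slfn5, a long interferon-induced member, had 10.10, 9.94, 8.55 and 8.53 on septic TLR-deficient replicates 1 to 4. The septic wildtype arrays had 8.52, 6.30, 8.13 and 10.31, and the untreated arrays 9.43, 10.33, 10.85 and 10.55. Slfn8, a long member with a role in T cell immunity, followed it closely, with 9.44, 9.37, 7.47 and 8.0, then 8.0, 6.27, 7.43 and 9.38, then 8.56, 9.33, 9.46 and 9.65 in the same order. Septic TLR-deficient replicate 3 (M7) lay near the M8 to M11 arrays for these genes, at 8.55 for Slfn5 and 7.47 for Slfn8, while its Slfn2 and Slfn3 did not.

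Slfn9, the near copy of Slfn8, had 7.19, 6.54, 5.97 and 5.80 on septic TLR-deficient replicates 1 to 4. It had 5.76, 6.11, 5.26 and 7.0 on the septic wildtype arrays and 6.14, 7.08, 7.41 and 7.29 on the untreated arrays. It was the member whose lowest value (5.26) was not on septic wildtype replicate 2 but on replicate 3.

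**Figure D1:**
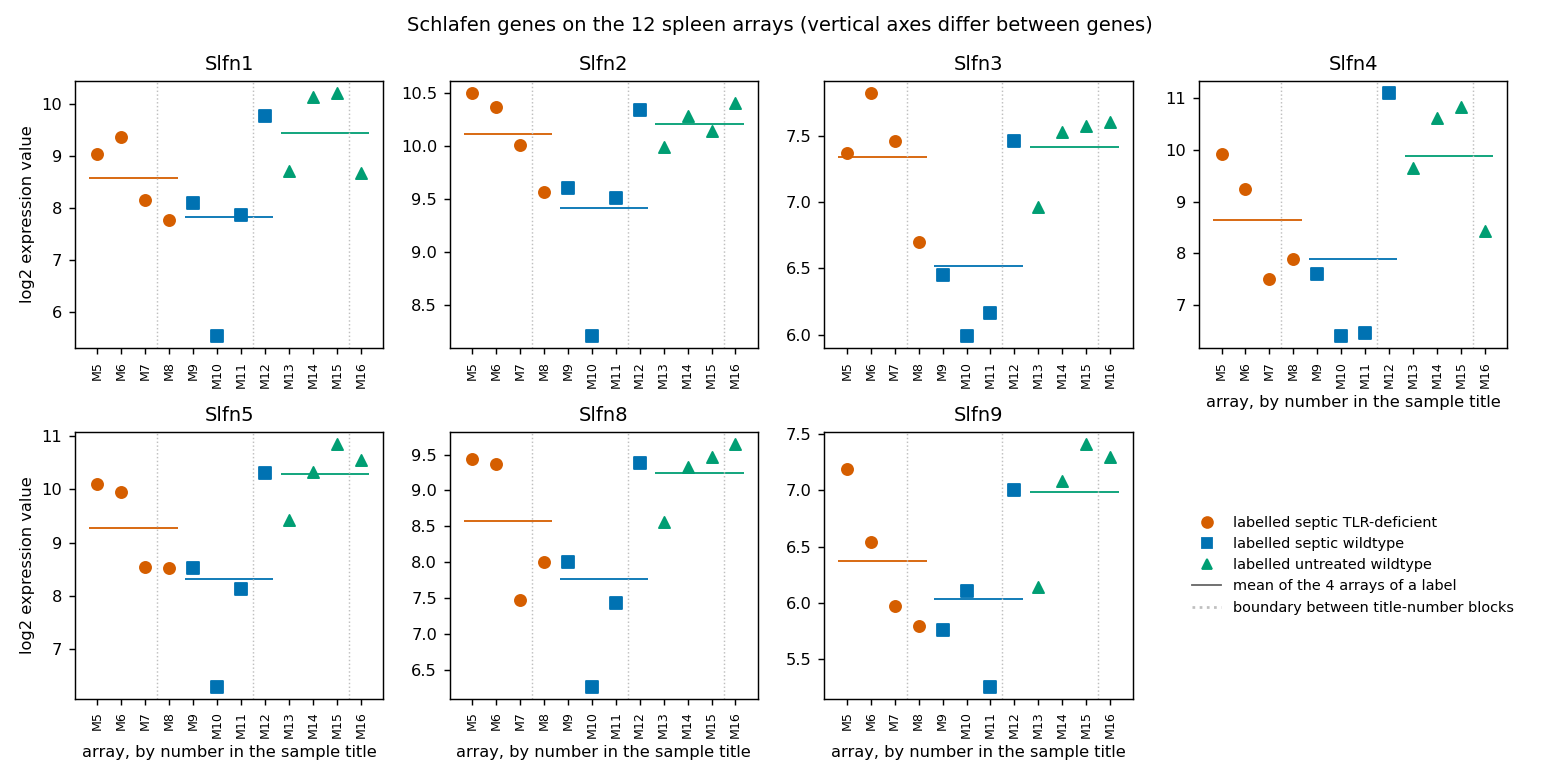
Log2 expression value (vertical axis, a separate scale for each gene) of the 7 Schlafen genes on 12 arrays in order of title number (horizontal axis). Symbols give the label, horizontal lines the mean of the 4 arrays of a label, and dotted lines the borders between runs of title numbers. Values on M8 to M11 lie below all those on M12 to M15 in 7 of 7 genes, although M8 and M12 carry another label than the arrays next to them in the run.

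Counted over the family, 7 of 7 members had all values on M8 to M11 below all values on M12 to M15, a pattern met by 5.09% of all genes. Xist and Eif2s3y also separated these runs, so sex and run cannot be told apart in this count. In 4 members (Slfn1, Slfn2, Slfn3 and Slfn5) M8 to M11 also lay below M5 to M7 with M16, as in 5.22% of all genes, and below all other 8 arrays, as in 2.12% of all genes. Between M12 to M15 and M5 to M7 with M16, 0 members were separated in either direction, against 7.1% of all genes with M5 to M7 and M16 below and 4.79% above. All 7 members lay below their own mean on each of M8, M9, M10 and M11. On M13 and M16, 5 and 6 members lay above it, on M7 2, and on M5, M6, M12, M14 and M15 all 7. The share of all genes on either side of their mean was not counted for single arrays. Values on M10 had the smallest SD of all arrays (1.52), so these counts by array are descriptions.

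Septic wildtype spleens were compared with untreated ones to see what peritonitis changes in animals with intact TLR signalling, as labelled. The means of all 7 members were lower in septic wildtype spleens, as labelled, and the median of their log2 differences was -1.48, against 0.07 over all genes. The members had mean levels above those of 62.0% to 98.5% of genes, so all genes are not matched to them by level. Over genes with a mean above the 25th percentile the median was -0.12. Of those at an unadjusted p under 0.05 in limma, 20.9% were higher, against 32.8% without this filter. Means were lower in 44.9% of all genes. In limma 0 of 7 members passed after adjustment, as did 0% of all genes, and each member had adjusted p = 0.439. At an unadjusted p under 0.05, 6 of 7 members were lower, against 5.92% of all genes. The labelled groups overlapped in 7 of 7 members, while 2.74% of all genes were separated with septic wildtype lower.

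For Slfn4 the septic wildtype mean was 7.89 ± 2.20 and the untreated mean 9.88 ± 1.09 (SD, n = 4 each), so that the log2 difference was -1.98 (SE 0.93). For Slfn5 the means were 8.31 ± 1.65 and 10.29 ± 0.61 (SD over 4 arrays per label), and the log2 difference -1.97 (SE 0.68). Among the other members the differences were -1.61 for Slfn1, -1.48 for Slfn8, -0.95 for Slfn9, -0.90 for Slfn3 and -0.79 for Slfn2. Differences were thus near 2 for 1 intermediate and 1 long member, and under 1 for Slfn2, Slfn3 and Slfn9. The size of the differences moved with single septic wildtype arrays. The difference for Slfn4 was -1.49 without replicate 2 and -3.05 without replicate 4, that for Slfn1 -0.86 and -2.26, and that for Slfn2 -0.39 and -1.10. For Slfn9 it was -0.97 without replicate 2, -1.27 without replicate 4 and -0.69 without replicate 3. Without septic wildtype replicate 4 the labelled groups were separated in 7 of 7 members, against 6.77% of all genes, and the lowest adjusted p of a member in limma was 0.286. Without untreated replicate 1 they were separated in 3 of 7, against 8.13%. Septic wildtype replicate 4 had the highest value of its label in every member, so leaving it out favours separation. Counts of separated members without a single array, here and below, are given for arrays picked with the values known.

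**Figure D2:**
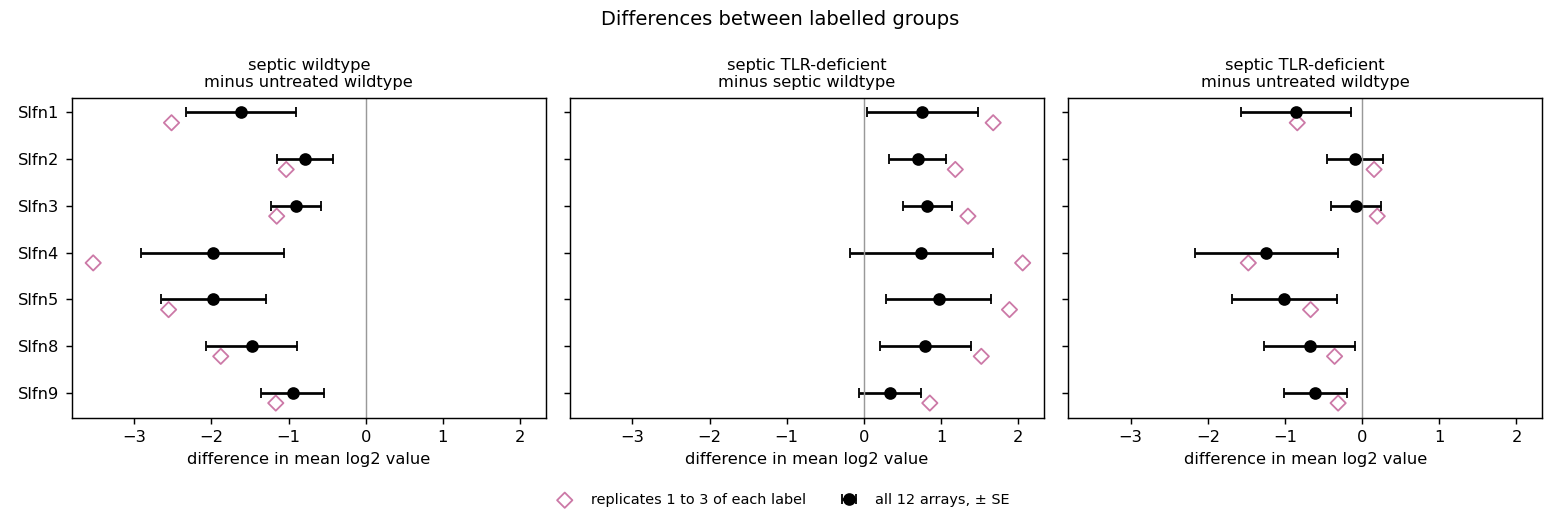
Difference in mean log2 value between labelled groups (horizontal axis) for the 7 Schlafen genes (vertical axis) in 3 comparisons. Filled points with bars are the limma difference over all 12 arrays ± SE, and open diamonds the difference over replicates 1 to 3 of each label, added with the data in view. All filled points lie below 0 on the left and right and above 0 in the middle, and the diamond of Slfn4 lies farthest out on the left, at -3.53.

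Septic TLR-deficient spleens were compared with septic wildtype ones, which bears on TLR signalling only if the labels hold. Even then, without untreated TLR-deficient mice, a genotype difference present before sepsis cannot be told apart from a TLR-dependent response to it. The means of all 7 members were higher in TLR-deficient spleens, as were those of 43.9% of all genes. The median difference was 0.76, against -0.06 over all genes and 0.07 over genes with a mean above the 25th percentile. This comparison shares the septic wildtype arrays with the one above, so the opposite signs are not independent of each other. No member passed in limma (0 of 7, and 0% of all genes), and the adjusted p ranged from 0.590 to 0.681. Slfn3 was the only member with an unadjusted p under 0.05 and a higher mean, which 4.42% of all genes had. It averaged 7.34 ± 0.46 on the TLR-deficient arrays and 6.51 ± 0.66 on the septic wildtype arrays (SD, n = 4 each), a difference of 0.82 (SE 0.32). The differences were 0.97 (SE 0.68) for Slfn5, 0.80 for Slfn8, 0.76 for Slfn1, 0.74 (SE 0.93) for Slfn4, 0.69 for Slfn2 and 0.34 for Slfn9. The labelled groups overlapped in 7 of 7 members, against 2.05% of all genes separated with TLR-deficient higher. Without septic wildtype replicate 2, the difference was 0.30 for Slfn5 and for Slfn8, 0.25 for Slfn4 and -0.0036 for Slfn1, and 0.65 for Slfn3. Without septic wildtype replicate 4 it was 1.81 for Slfn4 and 1.14 for Slfn3, and the groups were separated in 2 of 7 members, against 4.31% of all genes.

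Slfn3 passed between the septic groups when replicates 1 to 3 of each label were used alone. This subset, which drops M8, M12 and M16, was picked with the data in view, so its calls are no independent evidence. Its difference was then 1.35 (SE 0.25, adjusted p = 0.048 in limma), among 141 genes or 0.707% of all genes tested. The septic and untreated wildtype arrays differed by -3.53 for Slfn4 in that subset (adjusted p = 0.164), and 0 members passed there, against 0.0451% of all genes. With septic wildtype replicate 2 also left out, 2 members passed between the septic groups, Slfn2 and Slfn3, against 5.03% of all genes.

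The third comparison, of septic TLR-deficient spleens with untreated wildtype ones, mixes the effects of genotype and sepsis. Differences were small for Slfn2 (-0.10, SE 0.36) and Slfn3 (-0.08, SE 0.32), and largest for Slfn4 (-1.24, SE 0.93) and Slfn5 (-1.01, SE 0.68). Slfn1, Slfn8 and Slfn9 had -0.86, -0.68 and -0.61. All 7 means were lower, as in 48.1% of all genes, and 0 of 7 passed in limma (0% of all genes, adjusted p = 1 for each member), with 0 of 7 at an unadjusted p under 0.05 against 0.707% of all genes lower. The labelled groups overlapped in 7 of 7 members, where 0.998% of all genes were separated with TLR-deficient lower, and without untreated replicate 1 they were separated in 1 member, against 2.24%. Without septic TLR-deficient replicate 4 the differences for Slfn2 and Slfn3 were 0.09 and 0.13. The means of every member stood in the order untreated, septic TLR-deficient, septic wildtype, and no neighbouring pair in that order differed beyond the spread between arrays by the test.

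The members lie side by side on chromosome 11 in the order Slfn5, Slfn9, Slfn8, Slfn2, Slfn1, Slfn4, Slfn3. The 10 measured protein-coding genes nearest to them, 5 on each side, had SDs of 0.16 to 0.36 over the 11 arrays without septic wildtype replicate 2, where the members had 0.36 to 1.54. With that array the neighbours ranged from 0.23 to 1.05, the highest being Ap2b1, an adaptor subunit of clathrin-coated vesicles, and the members from 0.62 to 1.65. Of the 10, 6 had mean log2 values of only 4.12 to 5.59. Nle1, a ribosome assembly factor that lies 2 genes before Slfn5, was lower on each of M8 to M11 than on all other 8 arrays, as were 4 of the members, with deviations from its mean of -1.24 to -0.17 against 0.14 to 0.51. Its r with Slfn8 was 0.84 over the 12 arrays. A pseudogene of the cluster, Slfn10-ps, which lies between Slfn8 and Slfn2, had 4.40 to 6.43 on M8 to M11, 6.29 to 7.61 on M5 to M7 with M16 and 6.35 to 7.10 on M12 to M15. Slfn5os, the antisense transcript of Slfn5, lay between 4.23 and 5.06 on all 12 arrays, and Slfnl1, a Schlafen-like gene on another chromosome, between 4.84 and 5.68. Slfn5os and Slfnl1 were highest on septic wildtype replicate 2, the array on which 6 members were lowest. The neighbours also differed by level on that array, whose values had an SD of only 1.52. Of the 6 neighbours of low level, Rasl10b lay below its mean there (-0.27) and the others above, by 0.02 to 1.71. The brighter neighbours lay below theirs, by -3.16 for Ap2b1 to -0.16 for Rad51d. The part of expression level in this contrast was not tested.

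**Figure D3:**
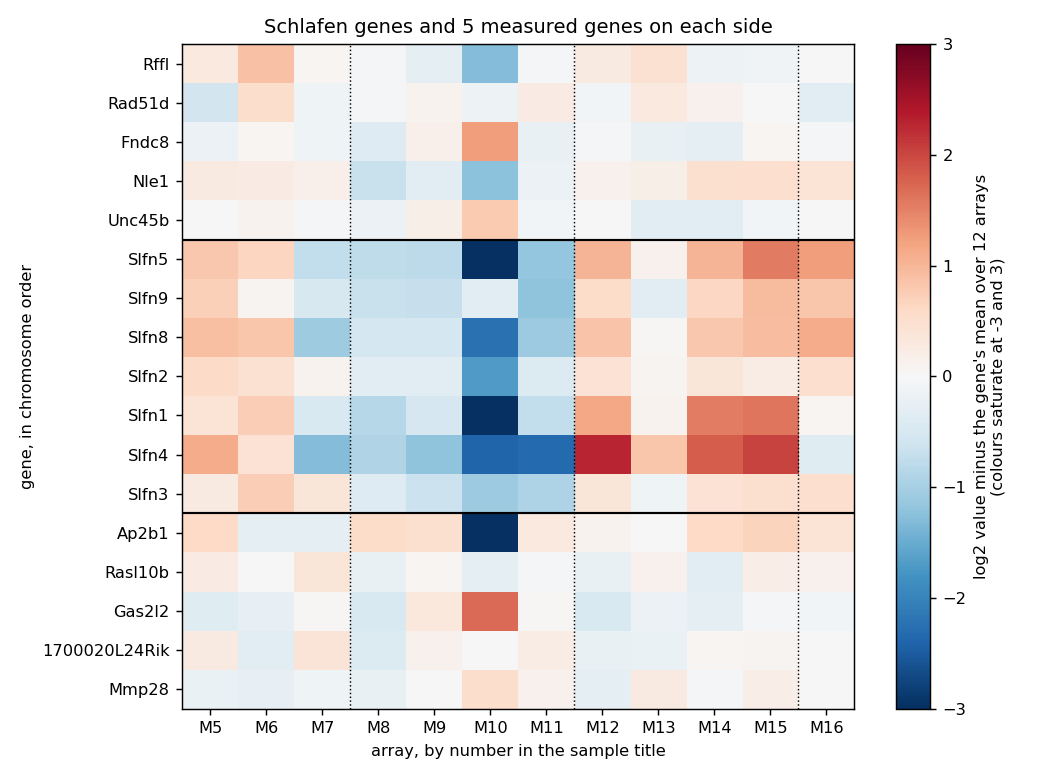
Deviation of each log2 value from the 12-array mean of its gene (colour, saturating at -3 and 3) for the Schlafen genes and 5 measured protein-coding genes on each side in chromosome order (rows), on the arrays by title number (columns). The rows between the solid lines are the 7 members, which are all below their mean on M8 to M11. The neighbours outside the lines have SDs of 0.16 to 0.36 once M10 is left out.

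Slfn4 and Slfn3 lie next to each other and are both intermediate members, and they were related differently on different arrays. The Slfn4 value minus the Slfn3 value, centred on its mean over the arrays, was 0.97 to 1.92 on M12 to M15, -1.40 to -0.52 on M8 to M11 and -1.68 to 0.83 on M5 to M7 with M16. On M16 Slfn3 was at 7.60 and Slfn4 at 8.43, while on M15 Slfn3 was at 7.57 and Slfn4 at 10.83. M12 to M15 were thus the arrays with high Slfn4 for their Slfn3, and they were also the arrays with low Xist and high Eif2s3y. Of the neutrophil markers 7 of 7 were measured, and their mean level was 7.81 to 8.95 on M12 to M15, 6.73 to 7.36 on M8 to M11 and 6.37 to 7.93 on M5 to M7 with M16. The overlap came from M7, which had a neutrophil mean of 7.93 and the lowest Slfn4 minus Slfn3 value (-1.68), while M13 had 7.81 and 0.97. Single markers were read by label only, and they differed in direction. Retnlg, Cxcr2 and Mmp8 had their highest label means on the untreated arrays (9.16, 8.30 and 7.48), and Ltf and Ngp their lowest there (5.92 and 7.69). S100a8 and S100a9 had their highest on the septic TLR-deficient arrays (8.54 and 8.04). The untreated label holds M16 and not M12, so these means do not show how a single marker behaved on M12 to M15. By label the neutrophil list ranged from 6.98 to 7.93 (septic TLR-deficient), 6.73 to 8.95 (septic wildtype) and 6.37 to 8.90 (untreated). No marker on the list had a mean log2 value below 6.36. Its part in the Slfn4 values was not tested, and in whole spleen RNA more cells of a type and more RNA per cell cannot be told apart.

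**Figure D4:**
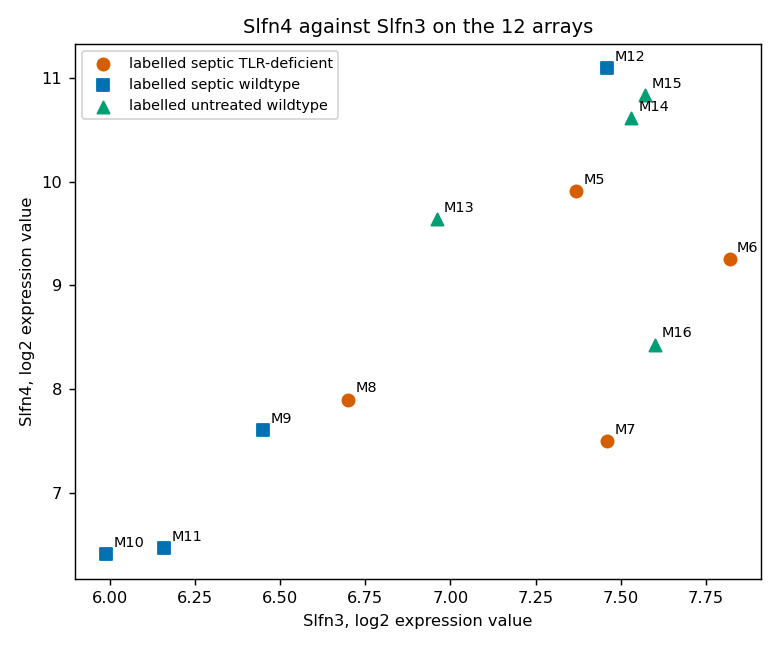
Log2 value of Slfn4 (vertical axis) against that of Slfn3 (horizontal axis) on the 12 arrays, with symbols for the label and the title number beside each point. At Slfn3 values between 7.37 and 7.82, Slfn4 ranges from 7.50 on M7 to 11.09 on M12.

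Genes of the interferon pathway were read beside the members, by role. Of the ligands and inducers 16 of 18 were measured, and 12 were lower on average in septic than in untreated wildtype spleens (median -0.49). Means were lower in 44.9% of all genes (median 0.07). The 4 with higher means were the measured type I interferon ligand genes, with means of 2.95 to 6.01 over the 12 arrays. They were Ifnb1 (4.05 septic, 3.57 untreated), Ifna2 (5.02 and 4.94), Ifna4 (2.96 and 2.89) and Ifna5 (6.16 and 5.94). These values are low, and the septic label holds replicate 2, the array on which the low Slfn5os and Slfnl1 were highest. The part of that array in these small differences was not tested. Among the inducers the difference was -1.93 (SE 0.75) for Irf7, a transcription factor for interferon genes, and -1.69 (SE 0.60) for the RNA sensor Ifih1. Of the receptors and signalling genes 17 of 18 were measured and 16 had lower means (median -0.63). Stat2, a partner in the complex that binds the ISRE, had a difference of -1.70 (SE 0.66) and Irf9, the part of that complex that contacts DNA, -0.63 (SE 0.28). Jak1, the kinase at the receptor, had -0.58 (SE 0.35) and Irf8, a factor of myeloid cells, -0.50 (SE 0.31). The 1 gene of this list with a higher mean was Ptpn6, at 10.02 on the septic wildtype and 9.86 on the untreated arrays.

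Of the interferon-stimulated genes 33 of 36 were measured. All 33 had lower means on the septic wildtype arrays, with a median difference of -1.66, and 28 had an unadjusted p under 0.05, where 44.9% of all genes had lower means and 5.92% were lower at that p. Between the septic groups 33 of 33 had higher means in TLR-deficient spleens (median 1.06), against 43.9% of all genes, and 3 of 33 had an unadjusted p under 0.05, against 4.42%. Between septic TLR-deficient and untreated arrays 32 of 33 had lower means (median -0.74), against 48.1% of all genes. Cxcl10, a chemokine for T cells, had differences of -2.32 (SE 0.70), 1.58 and -0.74 in these 3 comparisons, and Rsad2, an antiviral enzyme, -1.53 (SE 0.56), 1.45 and -0.08. Over all 3 lists 0 genes passed in limma in any of the 3 comparisons. By title number the mean level of the interferon-stimulated list was 6.33 to 7.87 on M8 to M11, 8.21 to 9.61 on M5 to M7 with M16 and 8.66 to 9.91 on M12 to M15. The medians of the Schlafen genes (-1.48, 0.76 and -0.68) and of this list had the same signs in each comparison.

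Genes of T cell quiescence and proliferation, the process Slfn1 and Slfn2 are known for, form a list that mixes genes of opposite roles. Of 17 listed 16 were measured, and 14 had lower means on the septic wildtype than on the untreated arrays, against 44.9% of all genes. The list median was -0.27, against 0.07 over all genes. In limma 0 passed after adjustment, and 2 were lower at an unadjusted p under 0.05, Myc and Ccnd2, against 5.92% of all genes. Ccnd2, a cyclin of the early cell cycle, had a difference of -0.98 (SE 0.41). Myc, which drives cell growth, had -1.58 (SE 0.52), and Btg1, which restrains proliferation, -0.06 (SE 0.18). The T cell markers (6 of 6 measured) had a median difference of 0.17 there, and the monocyte markers (5 of 6 measured) of -0.47, both with 0 passing.

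The genes most like each member were ranked by Pearson's r of the log2 values over the 12 arrays, which are not independent of label, title number or array quality, so r is given as a description. Nearest to Slfn5 was Parp14, an interferon-induced ADP-ribosyltransferase (r = 0.995, and 0.991 without septic wildtype replicate 2), followed by Tor3a (0.991) and Parp12 (0.986). Parp14 was also nearest to Slfn8 (0.988), followed by Gbp7 (0.983) and Phf11d (0.980). Oas1b (0.965), of the oligoadenylate synthetases that activate RNase L, Herc6 (0.956) and Trim30d (0.948) were nearest to Slfn4. Slfn2 was most like Ifi35 (0.982), Il18 (0.980) and Nampt (0.977), and Slfn3 most like Lilr4b (0.970), Cxcl10 (0.964) and Mx2 (0.963). Slfn9 was most like Gm12185 (0.971), Mmp25 (0.955) and Gbp11 (0.937). Slfn1 was most like Tmem184b (0.990), the adaptor Sh3bp2 (0.980) and Fam53c (0.979).

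Among the members themselves the 21 pairs had Pearson's r of 0.598 to 0.978 over 12 arrays with a median of 0.847, and 0.664 to 0.972 with a median of 0.822 over 11 arrays. Over the same 12 arrays the median r of a member with all genes was -0.141. The most alike pair was Slfn5 and Slfn8 (0.978, and 0.964 over 11 arrays), and Slfn5 and Slfn9 reached 0.972 over 11 arrays. The least alike over 11 arrays were Slfn3 and Slfn4 (0.664), although they adjoin on the chromosome.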

How the data were processed

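Total RNA of mouse spleen was labelled as biotinylated cDNA with whole-transcript kits and read on Affymetrix arrays, per the labels' protocols. Each array's file gives log2 values for its probe sets, made by the authors with RMA in Affymetrix Expression Console, per the submitters' processing notes. The log2 values were used as deposited (35557 probe sets on 12 arrays, from 1.33 to 13.79). How many arrays there are sets the precision. Nothing says how the biological replicates were kept apart, so p-values measure the spread between these arrays.

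Probe sets with 1 gene symbol (21789; 1621 had several and 12147 none) gave 19938 genes, each represented by the probe set of highest mean. Symbols were updated by gene identifier for 21698 probe sets. limma 3.58.1 (R 4.3.3) was fitted to all 12 arrays with 1 mean per label, two-sided, with Benjamini-Hochberg adjustment over all genes and significance at 0.05. Differences are first group minus second group. Simulated data with known changes were used to test the fit.

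The members, gene lists, title-number runs and tests were chosen with earlier results of these data known. Named are all members, the 3 genes most like each by Pearson's r, and examples of the lists among their 4 brightest genes with Irf9, Stat2 and Irf7. Some genes were named outside this rule with their values known. Among these are Il6, Nle1, the neutrophil markers Cxcr2, Ltf and Mmp8, and the interferon ligand genes. Promoters came from RefSeq (GRCm38.p6) and were aligned with Biopython 1.88; 27025 genes had one. Figures were drawn with matplotlib 3.10.9. The files' genome build is not given in the sources used here.

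Alternatives were other normalizations, filters, probe set rules and variance models, the replicate number as a block, and leaving out arrays.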

Additional observations from a re-analysis of the deposited data

Results flagged for a closer look

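Slfn3 had a value of 6.96 on the array labelled untreated replicate 1, below the other 3 arrays of that label, which lay between 7.53 and 7.60. The gap to the nearest array was 0.89 of the whole range of the group, above the critical value of Dixon's test for 4 samples. It was the 1 such case among 21 groups of member values, and chance gives about 1 in 20.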

How the results depend on the processing

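Over 420 recomputed differences of the 7 members in 3 comparisons, 165 with single arrays left out, 209 under other normalizations, filters and models and 35 in subsets chosen after seeing the data kept their sign and their side of the threshold, 3 passed it, and 3, 1 and 4 changed sign. Those that changed sign were near 0: Slfn1 between the septic groups (range -0.00 to 1.40 with single arrays left out, -0.0036 without septic wildtype replicate 2), and, between septic TLR-deficient and untreated arrays, Slfn2 (-0.22 to 0.085) and Slfn3 (-0.24 to 0.13, and 0.0036 after a further quantile normalization). With replicates 1 to 3 only, and with septic wildtype replicate 2 also left out, the last 2 were 0.15 and 0.20 in either subset. They called 9 and 19 genes between septic and untreated wildtype, 141 and 1002 between the septic groups, and 33 and 675 between septic TLR-deficient and untreated, against 0 with all arrays. Of the members they called 1 (Slfn3) and 2 (Slfn2 and Slfn3, adjusted p = 0.0434 and 0.0141 in limma) between the septic groups. Array weights called 1 gene between septic and untreated wildtype. Leaving out any single array called 0 genes in each comparison in limma, with 146 to 3193 at an unadjusted p under 0.05. The cause of these shifts was not tested. With the replicate block 0 genes and 0 members passed in each comparison, with 1338, 1006 and 308 at an unadjusted p under 0.05 in limma, and it changed no call. The numbers do not pair the arrays: over 12 same-numbered pairs the correlation of deviations from group means was -0.535 to 0.144.

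Centring each array on its median moved the median difference of all genes between septic and untreated wildtype from 0.07 to -0.06, and the share with higher values among genes at an unadjusted p under 0.05 from 32.8% to 7.39%, and between the septic groups from 66.6% to 89.3%. Of the 21 places of a gene most like a member, 3 per member with Parp14 holding places for Slfn5 and Slfn8, 7 stayed among the first 3 by Spearman's rho, ties for the third counted in, and 9 by Pearson's r without septic wildtype replicate 2. Signal over background was not analysed here.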
